A study of Drosophila melanogaster and Drosophila simulans and Drosophila yakuba with 12 samples.

Results

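Male and female prepupae of Drosophila melanogaster were compared by the small RNAs read from their whole bodies, in 3 of the 12 libraries of a study of 3 fruit fly species. The comparison set 2 samples of male white prepupae against 1 sample of female white prepupae, all of the Oregon-R strain, raised at 25 °C and frozen 0 to 1 h after puparium formation, when the larva turns immobile and its cuticle becomes the pupal case. Of 337 mature miRNA arms listed for the species, 172 had a read in at least 1 of the 3 libraries and 71 had at least 20 reads over the 3. The male libraries held 10629 reads (sample 1) and 9024 reads (sample 2) on miRNA arms, and the female library held 48209. The 2 male samples came from different total RNA preparations, and male sample 1 was pooled with the female sample from the ligation of the 3′ adaptor onwards. The 4-nt index at the end of the 5′ adaptor, which is joined directly to the small RNA, was TGAC in both male libraries and GACT in the female library, so that sex and index cannot be told apart in these 3 libraries. Libraries used beside them were those of male and female larvae 18 h before puparium formation (2 and 1), and the libraries of male prepupae of D. yakuba and D. simulans, in each of which 1 RNA was made into 2 libraries with different indexes and pools.

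A miRNA is cut by Drosha and then Dicer from a hairpin whose strands are named the 5p and the 3p arm, and usually one arm is loaded into an Argonaute protein and the other is degraded. Bases 2 to 8 of the loaded arm, the seed, pair with target mRNAs, so arms that share a seed can share targets. Around puparium formation a pulse of the steroid hormone ecdysone starts the breakdown of larval tissue, and miRNAs such as let-7, miR-14, miR-34 and miR-8 have been tied to steroid signalling in the fly. The sexes differ at this stage in their gonads and in body growth. Small testes and ovaries are part of a whole body, and in such samples fewer cells of a type and less RNA per cell cannot be told apart.

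The sequences below are the most read forms, in the 3 libraries, of arms on which the comparison turns. They are taken from the deposited alignment text, 5′ to 3′, with the seed in capitals. The first 5 had higher shares in males, and the next 4 lower shares.
miR-999-3p: uGUUAACUguaagacugugucu
miR-124-3p: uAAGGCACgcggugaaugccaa
let-7-5p: uGAGGUAGuagguuguauagua
miR-995-3p: uAGCACCAcaugauucggcuu
miR-263a-5p: aAUGGCACuggaagaauucacggg
miR-33-5p: gUGCAUUGuagucgcauuguc
miR-375-3p: uUUGUUCGuuuggcuuaaguua
miR-1-3p: uGGAAUGUaaagaaguauggag
bantam-5p: cCGGUUUUcgauuugguuugacu
The reads of miR-263a-5p started 3 bases, and those of miR-33-5p 2 bases, after the start that the file lists for the mature miRNA, which gives both another seed than the listed one. The next 4 show seeds shared by arms that differed and arms that did not. miR-279-3p, lower in males, has the seed of miR-996-3p, which was not called, and miR-2b-3p, higher in males, has the seed of miR-11-3p, which was lower.
miR-279-3p: uGACUAGAuccacacucauua
miR-996-3p: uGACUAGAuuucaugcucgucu
miR-2b-3p: uAUCACAGccagcuuugaggagcg
miR-11-3p: cAUCACAGucugaguucuugcu
The last pair, both higher in males, shares a seed that also belongs to the mir-310 cluster.
miR-92a-3p: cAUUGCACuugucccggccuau
miR-92b-3p: aAUUGCACuagucccggccu

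By share of reads, both male libraries held far more miR-8-3p than the female library, and more let-7-5p and miR-124-3p. Sex and index cannot be told apart in these libraries, and the part of the index in the differences was not tested. Shares of miR-999-3p, miR-92a-3p and miR-92b-3p were also higher, but these calls were lost under both other scalings of the libraries, given below. miR-999-3p had 5 reads in male sample 1 and 1 in the female. Both male libraries had lower shares of miR-33-5p, miR-279-3p, miR-1-3p, miR-375-3p and the 5p arms of bantam, mir-14 and mir-998. An arm was called different where both male libraries lay on the same side of the female library and the exact 95% counting interval of each male share was separate from that of the female share. Of the 172 arms with a read, 26 were called (15.1%), 12 higher in males (6.98%) and 14 lower (8.14%). Of the 71 arms with at least 20 reads, 25 were called (35.2%), 11 higher (15.5%) and 14 lower (19.7%). The intervals cover the counting error of reads only. The reads carry no molecular identifiers, so PCR copies of 1 molecule cannot be told from separate molecules and are not allowed for. The 1 female library gives no measure of the spread between female samples. The 2 male libraries differed from each other with separate intervals in 32 of the 172 arms (18.6%), 25 of them higher in male sample 1 (14.5%) and 7 lower (4.07%). Against male sample 2 alone, without replicate 1, 45 arms were called, and against male sample 1 alone, without replicate 2, 55.

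**Figure D1:**
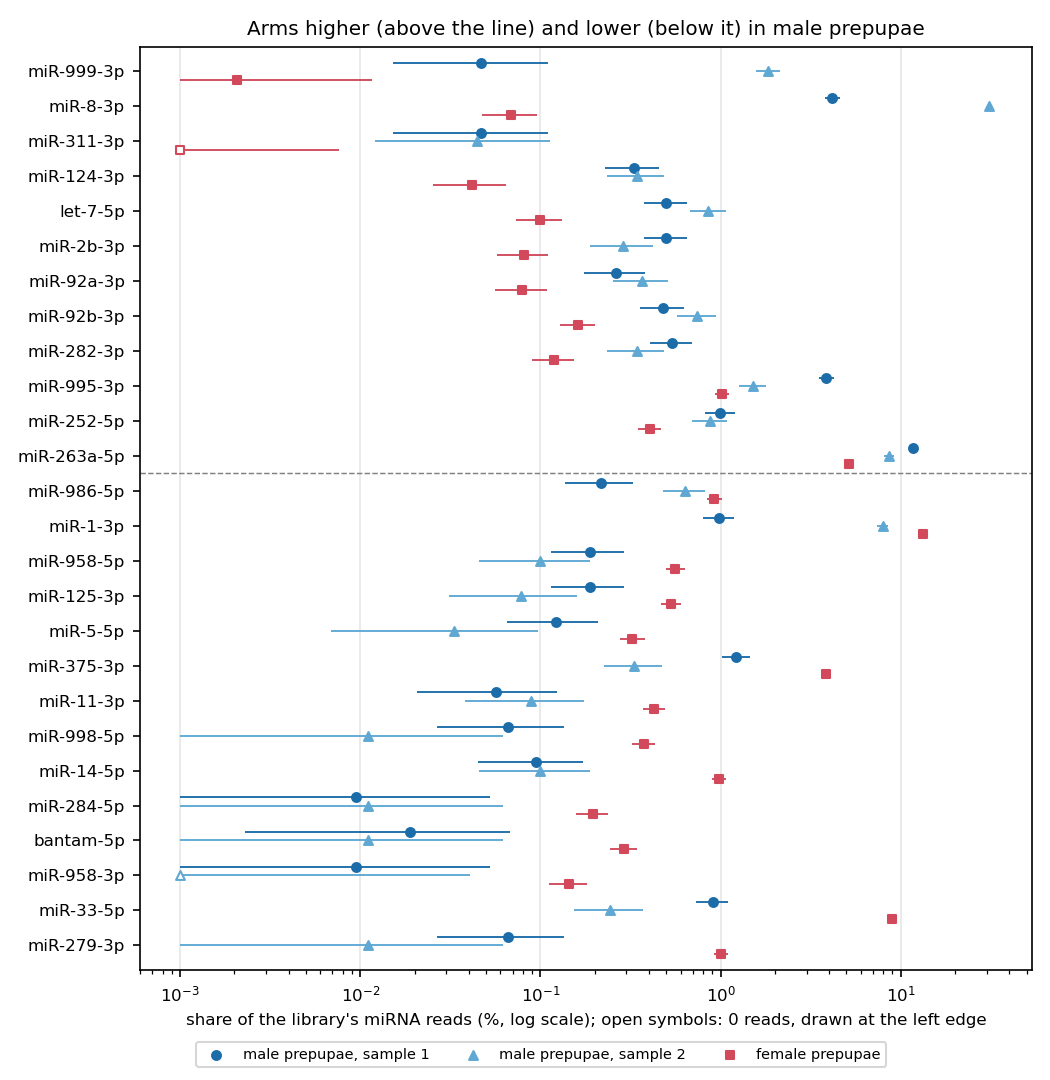
Share of each library's miRNA reads (percent, log scale) for the 26 called arms in both male libraries (blue) and the female library (red), with exact 95% counting intervals, cut at the left edge of the plot. In the 12 rows above the line both male shares lie above the female share, and in the 14 rows below it both lie below.

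Among the arms with higher shares in males was miR-8-3p, a regulator of insulin signalling and body growth in the fly fat body. miR-8-3p had 444 and 2791 reads in the male libraries, against 33 in the female library. Its share was 4.18% and 30.9% in males and 0.0685% in the female, which made male sample 1 61.0-fold higher (interval 42.8 to 89.8) and male sample 2 452-fold higher (321 to 658). It was the most read arm of male sample 2 and the fourth of male sample 1. miR-999-3p, cut from an intron of CASK, had 5 and 166 reads in males and 1 in the female. The ratio was 22.7 (2.54 to 1073) for male sample 1 and 887 (157 to 35237) for male sample 2, so that its size rests almost entirely on male sample 2.

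let-7-5p, the timing miRNA of the larval to adult transition, had 53 and 77 reads in males and 48 in the female. That was 0.499% and 0.853% of the reads, against 0.0996%, or 5.01-fold (3.33 to 7.56) and 8.57-fold (5.90 to 12.6) higher. miR-124-3p, the miRNA of neurons, had 35 and 31 reads in males and 20 in the female. Its shares of 0.329% and 0.344%, against 0.0415%, were nearly the same in both males, and 7.94-fold (4.46 to 14.5) and 8.28-fold (4.57 to 15.3) above the female. miR-252-5p also differed alike in both males, with 0.997% and 0.875% against 0.404%. miR-263a-5p, which protects sense organ cells from cell death, was the most abundant of the arms with moderate differences, with 11.7% and 8.63% in males and 5.17% in the female (2.26- and 1.67-fold higher).

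The miR-92 family, whose 2 members lie in the gene jigr1, was higher in males in both its 3p arms. miR-92a-3p had 28 and 33 reads in males and 38 in the female, 3.34- and 4.64-fold higher in share. miR-92b-3p had 51 and 67 reads in males and 78 in the female, 2.97- and 4.59-fold higher. miR-311-3p, a mir-310 cluster arm with the same seed that the naming rule did not cover and that is named after its values were seen, had 5 and 4 reads in males and 0 in the female, at least 7.56- and 7.12-fold higher with a floor of 3 counts in the female library.

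miR-2b-3p, of the K box family that acts on Notch target genes, had 53 and 26 reads in males and 39 in the female, 6.16- and 3.56-fold higher. It differs by 1 base from miR-2a-3p, so that reads could pass between them. miR-2a-3p had 24 and 22 reads in males and 64 in the female and was not called. The others higher in males were miR-282-3p, with 57 and 31 reads against 57, and miR-995-3p, from an intron of Cdk2, with 410 and 136 against 491. miR-282-5p, the major arm of its hairpin, was not called, with 1.57% and 7.39% in males and 2.19% in the female.

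Of the arms with lower shares in males, miR-33-5p lies in an intron of SREBP and acts in lipid metabolism. It had 96 and 22 reads in males, or 0.903% and 0.244%, against 4315 reads or 8.95% in the female, where it was the fourth most read arm. The ratio of male to female was 0.101 (0.0816 to 0.124) in male sample 1 and 0.0272 (0.0171 to 0.0413) in male sample 2. miR-279-3p, which shapes the formation of olfactory neurons, had 7 and 1 reads in males and 483 in the female, or 0.0659% and 0.0111% against 1.002%. Its neighbour miR-996-3p, with the same seed and 1499 bases away in the Ensembl annotation, had 44 and 2 reads in males and 93 in the female, so that the 2 males fell on opposite sides of the female.

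miR-1-3p, the muscle miRNA, had 104 and 716 reads in males, or 0.979% and 7.93%, against 6382 or 13.2% in the female. Both males were lower, but the gap between the males was larger than that between male sample 2 and the female. miR-375-3p had 1.22% and 0.332% in males and 3.86% in the female. miR-125-3p, the arm of the let-7 transcript opposite to the usual miR-125-5p, had 20 and 7 reads in males and 256 in the female, the reverse of let-7-5p from the same transcript.

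A pair of arms from an intron of E2f1, the cell cycle transcription factor, was lower in males. miR-11-3p, which limits cell death, had 6 and 8 reads in males and 207 in the female. miR-998-5p, 475 bases away, had 7 and 1 reads in males and 181 in the female. Their shares were at most 0.0887% in the males and 0.429% and 0.375% in the female.

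Several lower arms were the strand opposite to the one listed as the mature miRNA. The file lists no mature sequence for 6 of the 14 lower arms, against 1 of the 11 higher arms and 9 of the 46 uncalled arms with at least 20 reads. bantam-5p, from the hairpin of the growth miRNA bantam, had 2 and 1 reads in males and 140 in the female, while bantam-3p had 0.95% and 0.443% in males and 0.301% in the female and was not called. miR-14-5p, from a hairpin known for fat metabolism and cell death, had 10 and 9 reads in males and 475 in the female, while miR-14-3p had 98 and 1 in males and 124 in the female. miR-284-5p had 1 and 1 reads against 94, and miR-5-5p, a listed mature arm, had 13 and 3 against 156. Both arms of mir-958 were lower, the 3p arm with 1 and 0 reads in males and 69 in the female, the 5p arm with 20 and 9 in males and 270 in the female.

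Among the arms nearest to the rule, miR-986-5p, named for its place there, lay just inside, with 23 and 57 reads in males and 445 in the female (0.216% and 0.632% against 0.923%). miR-995-3p, miR-5-5p and miR-999-3p followed. Just outside lay miR-184-3p, with 20.9% and 6.39% in males and 21.6% in the female, then miR-281-3p, miR-970-3p and miR-10-3p. miR-10-3p, a Hox cluster arm, had 3.48% and 0.454% in males and 3.85% in the female. miR-184-3p was the most read arm of male sample 1 and of the female library.

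Some abundant arms were not called. For miR-31a-5p, with 17.7% and 13.7% in males and 15.5% in the female, male sample 1 lay above and male sample 2 below the female, each with separate intervals, and both lay below it with TMM scaling or DESeq2 size factors. The next 3 arms had overlapping intervals in both males. miR-31b-5p, from the X chromosome, held 3.68% and 4.16% in males and 3.58% in the female. miR-8-5p held 1.47% and 1.36% in males and 1.33% in the female, while the other arm of its hairpin was called higher. miR-9a-5p, which acts in sense organ precursors, held 0.489% and 0.676% in males and 0.591% in the female.

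**Figure D2:**
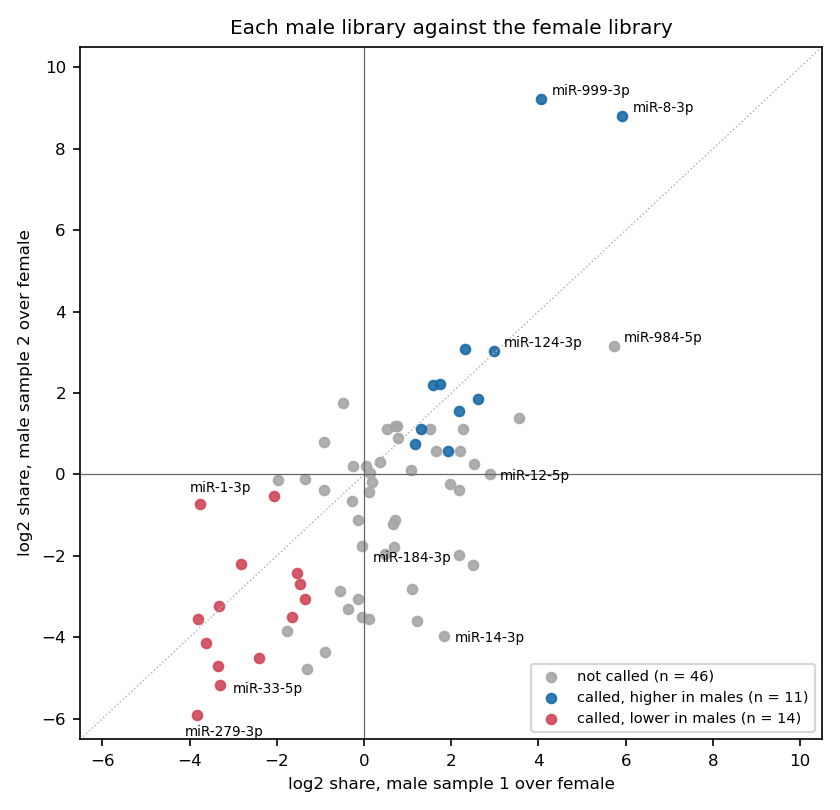
Log2 ratio of the share in male sample 1 (horizontal) and male sample 2 (vertical) to that in the female library for the 71 arms with at least 20 reads, with a pseudocount of 0.5 reads. Called arms lie at the upper right (11 higher) and lower left (14 lower), and 17 arms have their 2 males on opposite sides of the female.

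The calls depended on how the libraries were scaled. Over the 71 arms with at least 20 reads, the median log2 ratio of the mean male share to the female share was 0.09. It was −0.65 with TMM scaling and −0.62 with DESeq2 size factors, since a change of scaling moves all arms of a library together. With TMM scaling 5 arms were higher and 24 lower in males, and with DESeq2 size factors 7 were higher and 24 lower. All 14 lower calls were kept under both. miR-252-5p, miR-263a-5p, miR-311-3p, miR-92a-3p, miR-92b-3p, miR-995-3p and miR-999-3p were no longer called with TMM scaling. Of these, all but miR-263a-5p and miR-311-3p were also lost with DESeq2 size factors. Of the named arms, miR-184-3p, miR-31a-5p, miR-10-3p, miR-305-5p, miR-iab-4-5p and miR-7-5p became lower calls under both scalings, and miR-281-5p with TMM scaling. All 12 higher arms kept a ratio above 1 under both scalings. miR-8-3p, miR-124-3p, let-7-5p, miR-2b-3p and miR-282-3p were higher in males under every scaling tried.

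The spread between samples was taken up with edgeR, which fitted 4 group means over the 6 D. melanogaster libraries, larvae included, so that p-values reflect only how these few samples vary. Of 69 arms tested, 2 passed an adjusted p of 0.05 (2.9%), both higher in males. miR-8-3p had a log2 change of 8.05 ± 1.92 (SE) with an edgeR adjusted p of 0.00342, and was higher in both males. miR-999-3p had 8.57 ± 2.55 with an edgeR adjusted p of 0.0342. With the pool block the log2 change of miR-999-3p was 3.79, with an edgeR adjusted p of 0.0458. Its call was lost with upper-quartile scaling (edgeR adjusted p = 0.0775), with no filter (0.153) and with the 3 prepupal libraries alone (0.122). In the main fit let-7-5p and miR-124-3p did not pass, with edgeR adjusted p of 0.575 and 0.559. No arm passed in the lower direction in the main edgeR fit or in DESeq2, although 9 arms in all had an unadjusted p under 0.05 in edgeR and 10 in DESeq2. In the main fit miR-279-3p came nearest with −4.94 ± 1.59 and an edgeR adjusted p of 0.0540, followed by miR-33-5p with −4.25 ± 1.52 and 0.104. Under other edgeR settings miR-33-5p passed as lower with 20 reads in every library, and miR-279-3p with the 3 most read arms left out. miR-33-5p also passed as lower without the female larva library. Most calls of the fits without a male larva replicate, given below, were lower in males too. With the library pool as a replicate block, 16 arms passed, 7 higher and 9 lower, miR-279-3p, miR-33-5p, miR-1-3p, miR-11-3p and miR-375-3p among the lower. Both female libraries were in the pool of male sample 1, so the block sets the female mainly beside that sample. The log2 change of miR-8-3p was 5.93 with the block, and its log2 ratio was 5.91 in male sample 1 alone. The 7 higher included miR-12-5p, for which male sample 2 was level with the female. Without male prepupa replicate 1 no arm passed, and likewise without male prepupa replicate 2. Without male larva replicate 1 there were 9 calls, and without male larva replicate 2 there were 5. The 3 prepupal libraries alone gave 1, miR-8-3p.

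The index of the male libraries and that of the female library each occurred on another library whose RNA was also sequenced with a different index. Both libraries of each such RNA were of male prepupae, were counted here on the D. melanogaster hairpins, and also differed in pool and depth. Those of D. yakuba held 1499 arm reads with TGAC and 22483 with CGAT, and those of D. simulans 23945 with GACT and 5220 with ACTG. In D. yakuba, 17 of 120 arms with a read differed with separate intervals between TGAC and CGAT (14.2%), 11 higher (9.17%) and 6 lower (5%) with TGAC. In D. simulans, 31 of 115 differed between GACT and ACTG (27%), 11 higher (9.57%) and 20 lower (17.4%) with GACT. Of the 12 arms higher in male D. melanogaster, 6 were also higher in the TGAC library of D. yakuba, 5 were lower in the GACT library of D. simulans, and 10 in all showed at least 1 of these. None showed the opposite. The exceptions were miR-282-3p and miR-311-3p.

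miR-8-3p held 28.0% of the reads of the D. yakuba library with the males' index and 2.90% of that with the other index. miR-999-3p held 1.60% (24 reads) and 0.0267% (6 reads) in these, and let-7-5p 0.534% (8 reads) and 0.0534% (12 reads). For each of the 3, the library with the males' index was the higher of the pair, as the male libraries were in D. melanogaster. The D. simulans pair showed no separate intervals for these 3 arms. With the female's index and with the other, miR-8-3p held 1.29% and 1.44%, miR-999-3p 0.0877% and 0.0383%, and let-7-5p 0.497% and 0.517%. In the D. simulans library with the female's index, miR-263a-5p held 6.0%, against 10.9% with the other index, and miR-92b-3p 0.134% against 1.21%.

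Of the 14 arms lower in males, 7 were higher in the D. simulans library with the female's index than in that with the other index, and none was lower there. miR-33-5p held 3.39% and 0.996% in these libraries, miR-11-3p 0.823% and 0.134%, and miR-14-5p 0.376% and 0.0958%. bantam-5p had 55 reads with the female's index and 0 with the other. In D. yakuba miR-1-3p was lower with the males' index, at 9.01% against 45.8%, and miR-14-5p was higher, with 3 reads against 0. The other 7 lower arms, miR-279-3p, miR-284-5p, miR-375-3p, miR-5-5p, miR-958-3p, miR-986-5p and miR-998-5p, did not differ with separate intervals between the libraries of 1 RNA in either species. For miR-375-3p the D. simulans libraries held 1.19% and 1.30%, and for miR-279-3p 0.0543% (13 reads) and 0.0383% (2 reads), so that for the rarer arms the depth of these libraries limits what could be seen.

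**Figure D3:**
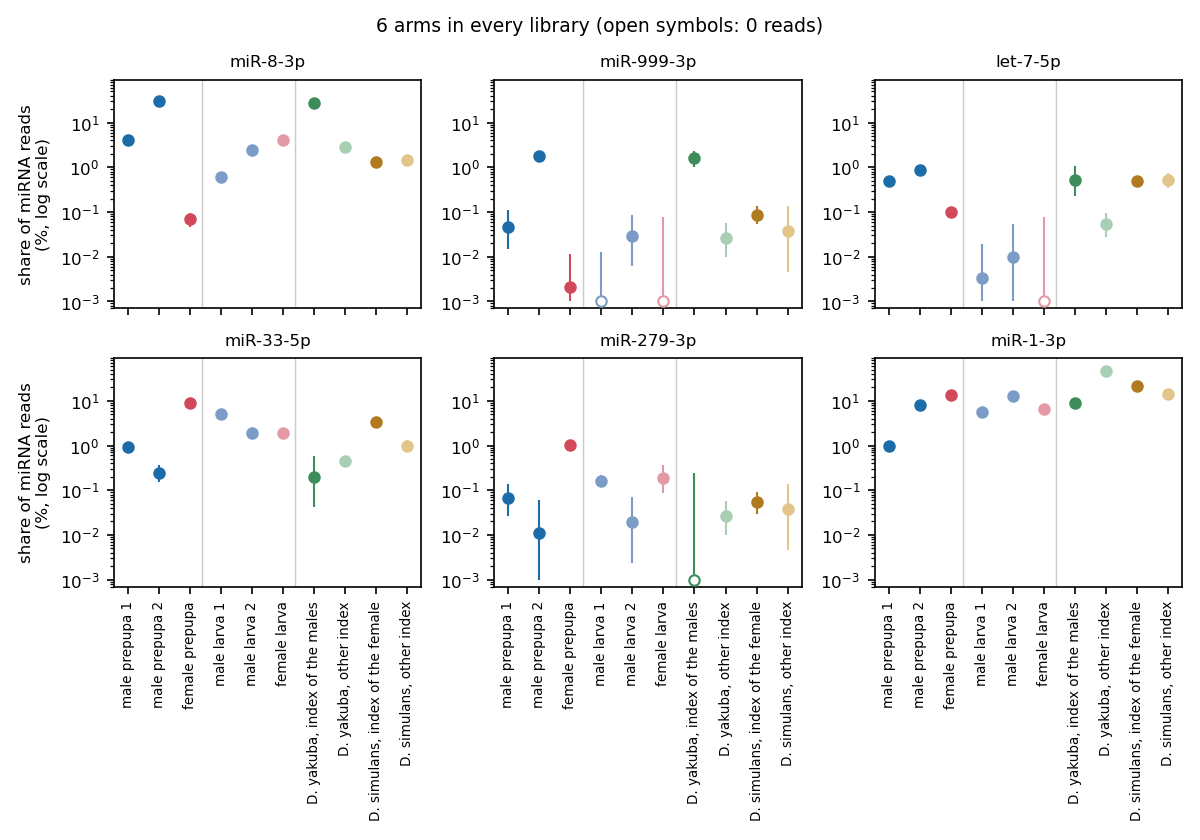
Share of miRNA reads (percent, log scale) of 6 arms in the male and female prepupae (left of the first line), the male and female larvae (middle), and the D. yakuba and D. simulans libraries of male prepupae (right), with exact 95% counting intervals cut at the lower edge. miR-8-3p and miR-999-3p are high in both male prepupal libraries relative to the female, and in the D. yakuba library with the males' index relative to the other D. yakuba library.

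Which strand of a hairpin was read was compared for the 28 hairpins with at least 20 reads in each of the 3 libraries. In 2 of them (7.14%), mir-8 and bantam, the 5p share was lower in both males. For mir-8 the 5p arm made up 26.0% (22.5 to 29.7) and 4.22% (3.52 to 5.02) of the hairpin's reads in males, against 95.1% (93.2 to 96.6) in the female. For bantam it made up 1.94% (0.236 to 6.84) and 2.44% (0.0617 to 12.9) in males, against 49.1% (43.2 to 55.1) in the female. The mir-8 shares in the larvae were 82.5% and 61.7% in males and 43.9% in the female. Both libraries of 1 D. yakuba RNA again stood apart, with a 5p share for mir-8 of 1.41% with the males' index and 44.7% with the other. The intervals of the D. simulans pair overlapped for mir-8, with 54.2% with the female's index and 60.3% with the other. For bantam the D. simulans libraries gave 66.3% with the female's index and 0 of 10 reads with the other, which allows up to 30.8% by the exact interval. The other 26 hairpins were not called, and mir-1, mir-124, mir-184, mir-317, mir-31a, mir-31b and mir-92b gave all their reads from 1 arm in all 3 libraries.

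The exact start of the miRNA was compared for 14 arms with at least 50 reads in each library. In 3 of them (21.4%), all in the same direction, the usual 5′ end was used more in males. For miR-275-3p, from a cluster expressed in the digestive tract, it was used by 100% of the reads in both males and 96.0% in the female. For miR-184-3p the shares were 99.96% and 99.8% in males and 96.6% in the female, and for miR-31a-5p 100% and 99.9% in males and 99.1% in the female. The D. simulans library with the female's index also lay below its partner in each of these, with 91.9% against 100% for miR-275-3p, 88.9% against 98.4% for miR-184-3p and 97.6% against 99.8% for miR-31a-5p.

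Read length differed for 2 of the same 14 arms (14.3%), 1 in each direction. For miR-275-3p, reads of 23 nt made up 69.0% and 73.0% in males and 28.0% in the female, in which 22 nt was the most common length at 49.3%, against 13.9% and 14.4% in males. The D. simulans library with the female's index had 25.3% at 23 nt and 41.9% at 22 nt, and that with the other index 84.1% and 9.66%. The larvae of both sexes had 67.4% and 76.1% in males and 61.7% in the female at 23 nt. For miR-263a-5p, reads of 24 nt made up 78.1% and 73.2% in males and 82.0% in the female. Untemplated bases at the 3′ end were carried by 1.92% and 2.49% of the reads in males and 1.97% in the female, mostly added A or U, and none of 11 arms tested differed.

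**Figure D4:**
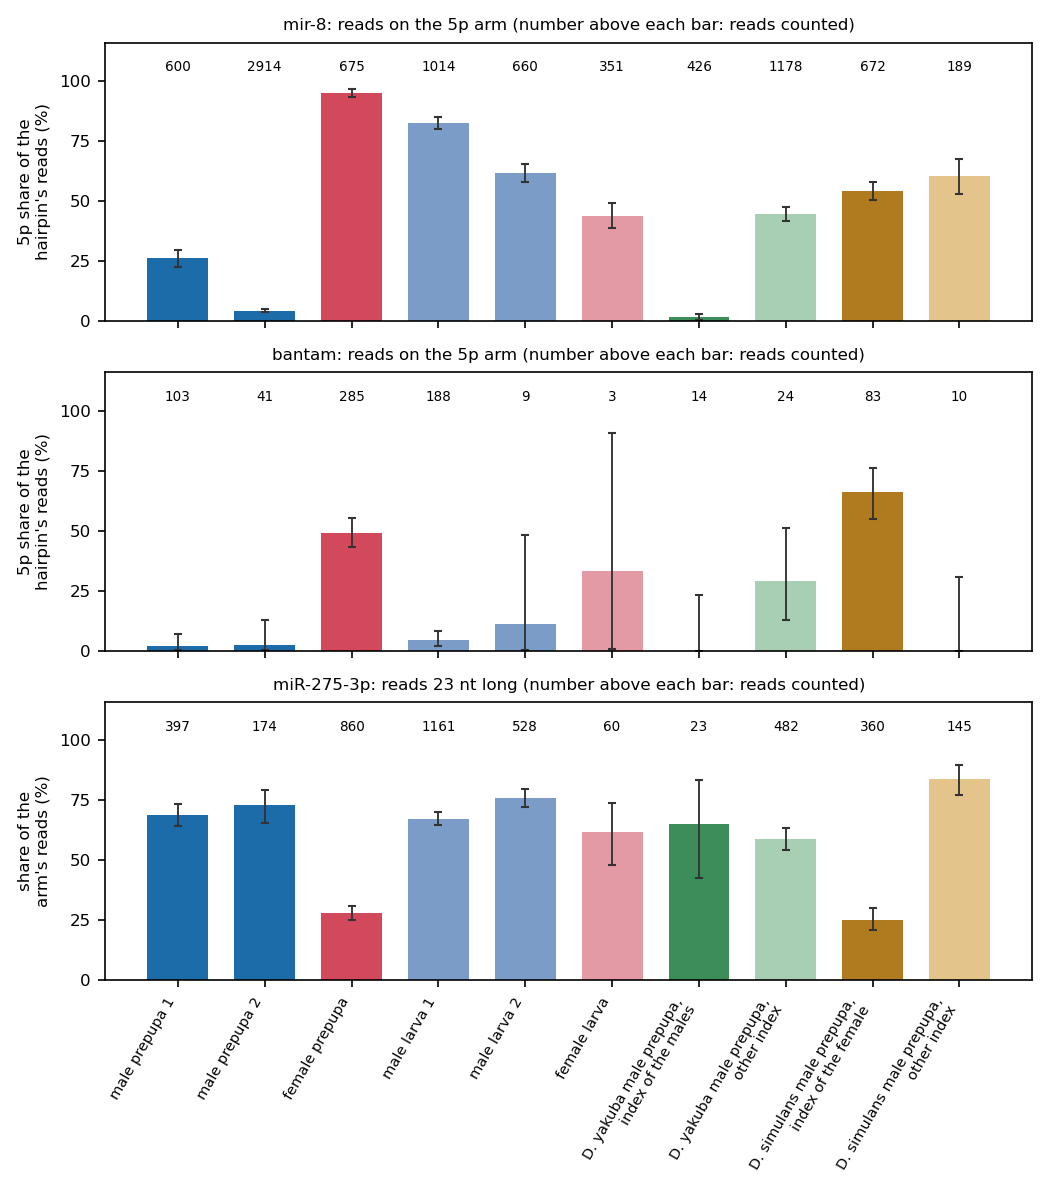
Share of mir-8 reads on the 5p arm (top), of bantam reads on the 5p arm (middle) and of miR-275-3p reads that are 23 nt long (bottom), in percent, with exact 95% counting intervals and the number of reads above each bar. Both male prepupal libraries lie below the female library for the 5p shares and above it for the 23-nt share, and the D. yakuba and D. simulans bars show the 2 indexes of 1 RNA each.

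The first base of the reads also set the libraries apart. Reads that began with G made up 1.40% and 0.499% in males and 11.4% in the female. miR-33-5p reads, which start with G, made up 64.4% and 48.9% of these in males and 78.7% in the female, followed in the female by miR-14-5p with 8.50% and by shifted reads of miR-184-3p with 6.20%. U was the first base of 70.9% and 84.6% of the reads in males and 69.9% in the female. The 10 most read arms held 73.5% and 84.7% of the reads in males and 80.0% in the female.

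No X-linked arm was called, of 22 with a read, beside 15.1% over all arms with a read and 35.2% over all arms with at least 20 reads. Those with at least 20 reads, 6 arms, had a log2 ratio of the mean male share to the female share above 0, with a median of 1.43, against 0.00 over 64 autosomal arms, of which 32 lay above 0. With TMM scaling or DESeq2 size factors, 4 of the 6 X-linked and 23 of the 64 autosomal arms lay above 0, and the difference of the medians was 1.33 and 1.35. miR-984-5p, of the testis-rich list, had 17 and 2 reads in males and 1 in the female. miR-12-5p had 168 and 19 reads in males and 103 in the female, or 1.58%, 0.211% and 0.214%, so that male sample 2 was level with the female. miR-970-3p had 1.70% and 0.554% in males and 0.371% in the female. Taken singly, male sample 1 was below the female for miR-283-5p, at a log2 ratio of −0.92, and male sample 2 was below it for miR-981-3p, at −1.97 with 0 reads. In 4 of the 6 arms male sample 1 was above male sample 2 with separate intervals. X-linked arms together held 7.45% and 5.15% of the reads in males and 4.32% in the female.

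**Figure D5:**
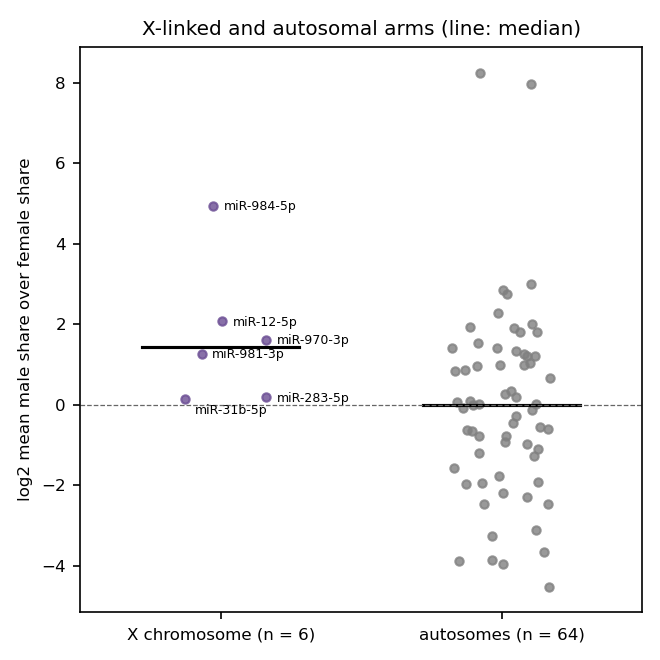
Log2 ratio of the mean male share to the female share for the 6 X-linked and 64 autosomal arms with at least 20 reads over the 3 libraries (pseudocount of 0.5 reads). The X-linked median is 1.43 and the autosomal median 0.00, and miR-31b-5p and miR-283-5p lie close to 0.

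Gonad miRNAs were rare in both sexes. The testis-rich list, 20 hairpins, had 12 arms with a read and held 0.245% and 0.144% in males, against 0.0332% in the female. The exact intervals of these summed shares were 0.160 to 0.358% and 0.0767 to 0.246% in males, separate from 0.0190 to 0.0539% in the female. No single arm of the list was called. Of its 26 reads in male sample 1, 17 were of miR-984-5p. miR-959-3p had 2 and 5 reads in males and 1 in the female, and miR-963-5p 5 and 0 in males and 0 in the female. miR-974-5p, also of the list, had 0 and 1 reads in males and 6 in the female. The ovary-rich list, mir-989, mir-318 and mir-994, had 0 reads in both males and 1 in the female, and the 0 reads allow a share of up to 0.0347% and 0.0409% in the males by the exact interval.

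Of the other lists, the steroid-linked list had 16 arms with a read, of which let-7-5p, miR-8-3p and miR-252-5p were higher in males and miR-125-3p and miR-14-5p lower. The median log2 ratio of its 9 arms with at least 20 reads was 1.22, against 0.09 over all 71 arms. miR-34-5p, a member, had 55 and 10 reads in males and 21 in the female and was not called. Of the 6 arms of the let-7 complex, let-7-5p was higher and miR-125-3p lower (median 1.41 over 3 arms). Of 14 growth and metabolism arms, miR-8-3p was higher and bantam-5p, miR-14-5p and miR-33-5p were lower (median −0.13 over 12 arms). Of 15 arms in the K box list, miR-2b-3p was higher and miR-11-3p and miR-5-5p were lower (median −0.04 over 6 arms). miR-5-5p is in the list but does not share the seed of miR-2b-3p and miR-11-3p. The list held 1.40% and 1.24% of the reads in males and 1.34% in the female. The lists overlap, and the counts in each direction stand beside 6.98% higher and 8.14% lower over all arms with a read. Over the arms with at least 20 reads the shares were 15.5% higher and 19.7% lower.

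Of 10 sense organ arms, miR-263a-5p was higher and miR-279-3p lower (median −0.01 over 7 arms), and miR-7-5p had 20 and 3 reads in males and 135 in the female. Of 4 nervous system arms with a read, miR-124-3p was higher. Of the muscle list, miR-1-3p was lower, and miR-133-3p had 0 reads in all 3 libraries. Of 7 Hox cluster arms none was called on the summed reads (median −1.08 over 4 arms), with 4.01% and 0.499% of the reads in males and 4.19% in the female. miR-10-3p and miR-iab-4-5p were lower under both other scalings. Of 6 digestive tract arms none was called on the summed reads either, with 9.37% and 3.08% in males and 5.59% in the female. miR-305-5p was lower under both other scalings and miR-281-5p with TMM. In both lists male sample 1 was close to or above the female and male sample 2 below it. The mir-310 cluster and mir-92 family had 8 arms with a read, 3 of them higher. The early embryo cluster had 4 arms with a read and 1 lower, miR-5-5p, and of 10 mirtron arms, from hairpins that are spliced introns, none was called.

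In larvae, whose male libraries carried ACTG and whose female library CTGA, 26 of 148 arms were called (17.6%), 10 higher in males (6.76%) and 16 lower (10.8%). Both arms of mir-958 were lower in male larvae too. miR-958-3p had 62 and 0 reads in male larvae and 109 in the female larva sample, and miR-958-5p 89 and 12 in males and 50 in the female. Of the arms higher in male prepupae, miR-8-3p, miR-124-3p and miR-995-3p were called lower in male larvae. miR-8-3p held 0.607% and 2.50% in male larvae and 4.17% in the female larva sample. let-7-5p had 1 and 1 reads in male larvae and 0 in the female. The remaining 21 arms called in prepupae were not called in larvae. Of 69 arms tested for a change of the sex difference between the stages, 1 passed in edgeR (1.45%), miR-8-3p. Larvae and prepupae shared no index.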

How the data were processed

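Small RNA of 16 to 28 nt from whole animals was joined to adaptors, amplified over 10 PCR cycles and sequenced, per the labels' protocols. The authors aligned reads with Bowtie 0.12.5, per the submitters' processing notes, to the hairpins of miRBase release 15, per the file headers. For the hairpin loci, the genome version is not given in the sources used here, and their positions are not printed. The deposited summary table holds expected counts, which the authors made by dividing reads among matching loci, with no normalisation. The deposited alignment text, not normalised either, lists the reads of each distinct sequence per library. These reads were summed again per arm, with a read that matched more than 1 copy of a miRNA entered a single time. Of 2040 summary cells, 2035 lay within 1 read of sums divided among loci in the same way. The summary table also has 8 columns from 4 libraries that belong to another series, which were left out. Arms with nearly all reads in common, miR-276a-5p and miR-276b-5p, were 1 unit, which left 337 arms.

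Each share is of the summed arm reads and has an exact Clopper-Pearson interval. One read is 0.00941% and 0.0111% of the male totals and 0.00207% of the female total, so that a rare arm is measured less precisely in males. Counts were tested with the edgeR 4.0.16 quasi-likelihood F test (R 4.3.3; TMM, filterByExpr, Benjamini-Hochberg adjustment, threshold 0.05) and, as an alternative, DESeq2 1.42.0. The edgeR step and the interval rule were tested on simulated data. The simulated counts for edgeR held no effect of pool or index, so they cannot check the calls made in these libraries. Intervals used scipy 1.17.1. Host genes came from the Ensembl annotation of assembly BDGP6, in its own coordinates. Male numbers 1 and 2 go with the library pool, which the labels give as shared handling. Same-pool deviations of larvae and prepupae had an r of 0.742 over 49 arms. A replicate block for the pool was therefore fitted as an alternative.

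Members, lists and tests were chosen with earlier results of these data known. Named arms were the 12 called arms with at least 20 reads and the largest difference in each direction, the edgeR calls and the 10 smallest p, the 10 most read arms, up to 4 arms of each of the lists, and arms called for strand, 5′ end or length. The lists were testis-rich, ovary-rich, muscle, nervous system, digestive tract, let-7 complex, growth and metabolism, steroid-linked, Hox cluster, sense organ, early embryo cluster, K box, mir-310 cluster and mir-92 family, and mirtron. Alternatives were other scalings and filters, the 99% level, other read minimums, leaving out libraries, the 3 most read arms or near-identical arms, and the summary counts.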

Additional observations from a re-analysis of the deposited data

Results flagged for a closer look

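The sex difference of miR-8-3p passed the test for a change between the stages, which rests on 1 female library at each stage and takes its spread from the 2 pairs of male libraries alone. The log2 ratio of male to female was higher in prepupae than in larvae by 9.31 ± 2.18 (SE, edgeR, adjusted p = 0.00245 over 69 arms). miR-8-3p had 444 and 2791 reads in male prepupae and 33 in the female prepupae, and 177 and 253 reads in male larvae and 197 in the female larva sample. Larval and prepupal libraries shared no index, and the part of the index in this difference was not tested. Without male prepupa replicate 1 or without male prepupa replicate 2, no arm passed this test.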

How the results depend on the processing

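The 26 interval calls became 45 without male prepupa replicate 1 and 55 without male prepupa replicate 2, as a single male library is a weaker requirement. By the rule all 26 had to remain in both, so leaving out a male library does not check them. Of the 26, 23 remained at the 99% level, 19 with TMM scaling, 21 with DESeq2 size factors and 24 with the 3 most read arms left out. In the last setting miR-995-3p lost its call, and miR-1-3p was itself among the arms left out. None of the 26 reversed. The 2 edgeR calls for sex became 1 with upper-quartile scaling, 1 with no filter, 1 with the 3 prepupal libraries alone 16 with the replicate block, and 0 to 9 when a library was left out. With 20 reads in every library there were again 2, of which 1 was shared. The replicate block rests on the shared pool, and both female libraries were in the pool of male sample 1. The median log2 change over the 69 arms was 0.01 with TMM, 0.32 with RLE and 0.52 with upper-quartile scaling. The 1 stage by sex call became 25 with the replicate block and 0 to 6 without a library. Strand use gave 1 call with 50 reads in each library and 4 to 8 without a male replicate, against 2. Calls of the 5′ end were 4 to 5 without a male replicate, and 2 at the 99% level, against 3, and of read length 5 to 7, against 2, and 1 at the 99% level. The causes of these changes in the model fits were not tested. Over the single arms named, 1041 of the alternative values were unchanged, called or not, 60 gained a call and 22 lost one. The unchanged values include arms that were never called, some without a read in the 3 prepupal libraries, so their number does not measure how stable the calls were. Depth limits the comparison most in the 2 male libraries, with 10629 and 9024 reads against 48209. The only female prepupal library could not be left out.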

Other observations

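miR-1-3p reads of 22 nt made up 39.4% (30.0 to 49.5) of the arm's reads in male sample 1, 88.5% in male sample 2 and 91.4% in the female. miR-92b-3p reads of 20 nt made up 15.7% in male sample 1, 70.1% in male sample 2 and 34.6% in the female. In both arms the 2 males had separate intervals from each other, and 1 of them overlapped the female, so that neither arm was called. Both differed between male samples with the same index and different pools, and the part of the pool was not tested.

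The most read arm differed between the 2 male samples. miR-8-3p led male sample 2 with 30.9% and miR-184-3p led male sample 1 with 20.9%. Of the 71 arms with at least 20 reads, 27 were higher in both males than in the female, 27 lower in both, and 17 on opposite sides. The median difference between the males, as the size of the log2 ratio, was 1.61.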
